A study of Mus musculus with 24 samples.

Results

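The cadherins and non-clustered protocadherins of the embryonic cortex were followed over 24 RNA-seq libraries. The members were the protein-coding genes named Cdh or Pcdh plus a number, without Cdh5 and without the clustered Pcdha, Pcdhb and Pcdhg genes. These were 34 of the 39017 genes listed, 22 cadherins and 12 protocadherins. Their summed reads made up between 0.0871% and 0.216% of each library.

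Cells came from the cerebral cortex of E15.5 mouse embryos and were sorted into PAX6+ cells, labelled radial glia, TBR2+ cells, labelled intermediate progenitors, and PAX6-TBR2- cells, which the series calls neurons. KO cells were Emx1Ires-Cre; Prdm16flox/flox and WT cells were Prdm16 flox/flox, so both genotypes carried the floxed alleles and KO cells alone carried the Cre allele. Emx1-driven Cre acts in the dorsal telencephalic lineage, and effects of the Cre or Emx1 allele itself cannot be told apart from those of the Prdm16 deletion. Each of the 6 groups had 4 libraries (replicates 1 to 4). The series calls the replicates biological, but no label names embryos, litters or their sex, and p-values measure the spread between these libraries.

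Cadherins are calcium-dependent adhesion proteins. Classical cadherins bind the same or related cadherins on a neighbouring cell through their outer domains and hold actin through catenins inside the cell. N-cadherin, encoded by Cdh2, holds radial glia together at the adherens junctions that line the ventricle, while type II cadherins are known for marking areas, layers and nuclei of the developing brain. The delta-protocadherins lack the catenin-binding tail of classical cadherins, and members of the family recruit the WAVE actin regulator or protein phosphatase 1 through conserved motifs of their cytoplasmic tails.

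Levels are given as CPM, counts scaled to the size of the library, with TMM factors over all 24 libraries, and comparisons between genes are given per kilobase (kb) of exon. A total of 4.95 to 12.6 M counts stood behind 23 libraries and 30 M behind WT PAX6-TBR2- replicate 4. The mitochondrial share of reads lay between 11.3% and 24% in PAX6+ libraries, between 24.7% and 39.3% in TBR2+ and between 20.4% and 26.1% in PAX6-TBR2- libraries. Summed radial glia markers reached 3235 to 3835 CPM in KO PAX6+ and 2846 to 3321 CPM in WT PAX6+ libraries, against 209 to 712 CPM in the other 16. Intermediate progenitor markers reached 1754 to 2128 CPM in TBR2+ libraries, and neuron markers 6095 to 7503 CPM in PAX6-TBR2- libraries. TBR2+ libraries also held 4022 to 5413 CPM of the neuron markers. Prdm16 itself had 187 ± 27.2 CPM in KO PAX6+ and 253 ± 34.1 CPM in WT PAX6+ cells (SD, n = 4 each), a log2 fold change of -0.43 (SE 0.12) with an adjusted p of 0.05798, which did not pass the threshold of 0.05 (edgeR's quasi-likelihood test, Benjamini-Hochberg adjusted over all genes tested). With the replicate number as a block the adjusted p was 0.0004945, and without WT PAX6+ replicate 4 or KO PAX6+ replicate 1 it was 0.02348 or 0.01918 (edgeR). Prdm16 also passed with DESeq2 (adjusted p = 0.02087), with limma (0.04962) and without a filter (0.005647, edgeR). In 10 of 16 alternative settings it did not pass. In the other populations Prdm16 was lower, at 52.3 ± 7.96 and 55.6 ± 16 CPM in KO and WT TBR2+ and 19 ± 7.47 and 25.3 ± 8.35 CPM in KO and WT PAX6-TBR2- cells (SD, n = 4 each), and neither difference passed. The floxed gene kept reads in KO cells, and gene counts do not show which exons they came from.

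Of the 34 members, 24 had enough counts to be tested in at least 1 comparison. The other 10 were Cdh1, Cdh3, Cdh9, Cdh15, Cdh16, Cdh17, Cdh18, Cdh19, Cdh26 and Pcdh12. Those included E-cadherin (Cdh1), with 115 reads over all libraries, P-cadherin (Cdh3), with 3, the muscle cadherin Cdh15, with 27, and the 7D cadherins Cdh16 and Cdh17, with 15 and 20. Cdh18 had 104 reads and Cdh9, another type II cadherin, 65. Pcdh12, known from endothelium and placenta, had 151 reads, and Cdh19 and Cdh26 had 1 and 2. The number of members that passed the filter differed between comparisons, since a gene had to be counted in the libraries compared.

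Of the members, 4 were called between genotypes in PAX6+ cells, and the bases that precede these 4 genes are shown because the first results turn on them. The sequences are RefSeq's promoter entries on GRCm38.p6, cut to the bases before the gene start, 5′ to 3′ on the gene's strand, and 22 of the 34 members had such an entry. Capitals mark matches to the CCAAT box (CCAAT), the TATA box (TATAAA) or an E-box (CACCTG) on either strand.
Cdh8, chr8:99416472-99416721, minus strand: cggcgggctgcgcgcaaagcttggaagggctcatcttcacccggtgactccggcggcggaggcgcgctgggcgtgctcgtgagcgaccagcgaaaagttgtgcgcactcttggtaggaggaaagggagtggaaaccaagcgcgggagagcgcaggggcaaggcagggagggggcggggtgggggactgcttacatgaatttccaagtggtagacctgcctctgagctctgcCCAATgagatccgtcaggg
Cdh20, chr1:104768270-104768519, plus strand: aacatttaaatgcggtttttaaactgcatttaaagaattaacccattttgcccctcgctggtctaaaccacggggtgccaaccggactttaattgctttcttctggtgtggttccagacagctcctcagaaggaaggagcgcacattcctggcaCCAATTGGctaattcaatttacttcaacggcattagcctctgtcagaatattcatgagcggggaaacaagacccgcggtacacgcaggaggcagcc
Pcdh7, chr5:57717831-57717966, plus strand: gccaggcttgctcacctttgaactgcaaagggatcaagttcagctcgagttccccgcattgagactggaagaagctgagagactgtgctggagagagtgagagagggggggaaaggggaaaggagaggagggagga
Pcdh8, chr14:79771313-79771562, minus strand: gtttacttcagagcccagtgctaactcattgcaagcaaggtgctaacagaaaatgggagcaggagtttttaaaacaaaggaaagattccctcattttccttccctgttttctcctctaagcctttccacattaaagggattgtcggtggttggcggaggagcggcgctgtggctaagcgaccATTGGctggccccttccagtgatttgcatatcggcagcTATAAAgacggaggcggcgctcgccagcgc
The Cdh8 window held 20 CG dinucleotides in 250 bases, a number that 17.9% of the 32851 windows of the table reached. The Pcdh8 window held 11 CG dinucleotides, a CCAAT match on the opposite strand and a TATAAA match. Cdh20 held 10 CG dinucleotides and CCAATTGG, in which CCAAT and its reverse complement overlap. Pcdh7 was cut to 136 bases, because GENCODE starts the gene inside the window, and held 2 CG dinucleotides and no match. CCAAT was present in 33.8%, TATAAA in 12.4% and CACCTG in 17.2% of all 250-base windows, and CACCTG in none of the 4 shown.

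In KO PAX6+ cells, 3 members rose and 1 fell. The type II cadherins Cdh20 and Cdh8 rose 2.85-fold and 3.11-fold, the delta-1 protocadherin Pcdh7 rose 1.7-fold, and the delta-2 protocadherin Pcdh8 fell 2.05-fold. Calls were made by edgeR's quasi-likelihood test at a Benjamini-Hochberg adjusted p under 0.05 over all genes tested. These 4 were among 21 members tested, or 19%, while 3.64% of the 14212 genes tested in this comparison were called (2.45% higher and 1.19% lower in KO). The median log2 fold change was 0.05 over the 21 members and 0.00197 over all genes.

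Cdh20 (ENSMUSG00000050840, chr1:104768529-104995481 of GRCm38, plus strand) is a type II cadherin with known expression in patterned domains of the embryonic brain. Its level was 63.3, 47.5, 62.9 and 55.5 CPM in KO PAX6+ replicates 1 to 4, against 19, 21.8, 20.9 and 18.6 CPM in WT PAX6+ replicates. The groups did not overlap, and each KO library stood well above every WT library. The log2 fold change was 1.51 (SE 0.124, adjusted p = 1.23e-06, edgeR). Per kb of exon Cdh20 ranked 2nd among the members in KO PAX6+ cells at 14.3 CPM per kb, and 7th in WT PAX6+ cells at 5.01 CPM per kb.

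Cdh8 (ENSMUSG00000036510, chr8:99024471-99416471, minus strand) encodes a type II cadherin known for its patterned expression in the cortex and for a role in synaptic connections. Its level was 11.8, 12.6, 17.1 and 12.7 CPM in KO PAX6+ replicates 1 to 4, against 5, 3.49, 3.65 and 5.6 CPM in WT PAX6+ replicates. KO replicate 3 stood above its group, and even the lowest KO library exceeded the highest WT library. The log2 fold change was 1.63 (SE 0.209, adjusted p = 0.0001561, edgeR). The level in KO PAX6+ cells remained below that of TBR2+ cells, where Cdh8 averaged 91.7 ± 19.3 CPM in KO and 127 ± 25.4 CPM in WT (SD, n = 4 each). Neuron markers summed to 361 to 378 CPM in KO PAX6+ and 345 to 374 CPM in WT PAX6+ libraries, and intermediate progenitor markers to 293 to 398 CPM in KO PAX6+ and 312 to 463 CPM in WT PAX6+ libraries. Gm15679, a gene on the opposite strand whose exons overlap Cdh8, was at 0 in all 8 PAX6+ libraries.

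Pcdh7 (ENSMUSG00000029108, chr5:57717967-58133230, plus strand) encodes a delta-1 protocadherin whose family members bind protein phosphatase 1. It had 50.9, 62.5, 60 and 52.4 CPM in KO PAX6+ replicates 1 to 4, against 38.2, 35.5, 26.7 and 33.5 CPM in WT PAX6+ replicates. The groups did not overlap, with a log2 fold change of 0.76 (SE 0.132, adjusted p = 0.002257, edgeR). A gene on the opposite strand with overlapping exons, 4932441J04Rik, had at most 0.17 CPM in PAX6+ libraries.

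Pcdh8 (ENSMUSG00000036422, chr14:79766775-79771312, minus strand) encodes a delta-2 protocadherin, also called arcadlin, known for regulating N-cadherin at synapses. It had 8.27, 7.21, 10.6 and 7.83 CPM in KO PAX6+ replicates 1 to 4, against 17.4, 16.4, 22.6 and 12.9 CPM in WT PAX6+ replicates. All KO libraries stood below all WT libraries, with a log2 fold change of -1.03 (SE 0.188, adjusted p = 0.003338, edgeR). None of the 3 Cajal-Retzius markers tested in PAX6+ cells was called, and all 3 had log2 fold changes below 0. All 6 had counts, and they summed to 19.2 to 97.1 CPM in KO PAX6+ and 32.6 to 292 CPM in WT PAX6+ libraries, highest in replicate 3 of both genotypes, where Pcdh8 was also highest. Their part in the change of Pcdh8 was not tested. Without WT PAX6+ replicate 3 the log2 fold change of Pcdh8 was -0.89 with an adjusted p of 0.0175 (edgeR). In bulk samples fewer cells of a type and less RNA per cell cannot be told apart.

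Markers of several cell types were called between the genotypes in PAX6+ cells by edgeR, where 3.64% of all genes tested were called. Of 8 radial glia markers Slc1a3 was higher in KO PAX6+ cells (log2 fold change 0.43, adjusted p = 0.03541, edgeR). Of the 6 intermediate progenitor markers tested 2 were lower in KO PAX6+ cells, Eomes (log2 fold change -0.74, adjusted p = 0.0358), which encodes TBR2, and Insm1 (-0.52, 0.01738). Of 9 neuron markers Syt1 was higher (1.36, 0.004319), but 6 of the 9 had log2 fold changes below 0, with a median of -0.29. Of 5 interneuron markers Gad2 was lower (-1.68, 0.01858), and all 5 lay below 0. Of 2 meninges markers tested Col1a2 was lower (-2.06, 0.01243), and that list summed to 1.23 to 3.83 CPM in KO PAX6+ and 3.63 to 4.82 CPM in WT PAX6+ libraries. None of the 6 endothelial and mural markers tested was called, and all 6 lay below 0 (median log2 fold change -0.62). Interneuron markers summed to 8.51 to 12.4 CPM in KO PAX6+ libraries, with 7 of 8 genes detected, and to 12.4 to 31.7 CPM in WT PAX6+ libraries, with all 8 detected. Endothelial and mural markers summed to 5.02 to 29.9 CPM in KO PAX6+ and 13.6 to 31.8 CPM in WT PAX6+ libraries, with all 9 detected in both. The part of these cells in the changes of the 4 called members was not tested.

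**Figure D1:**
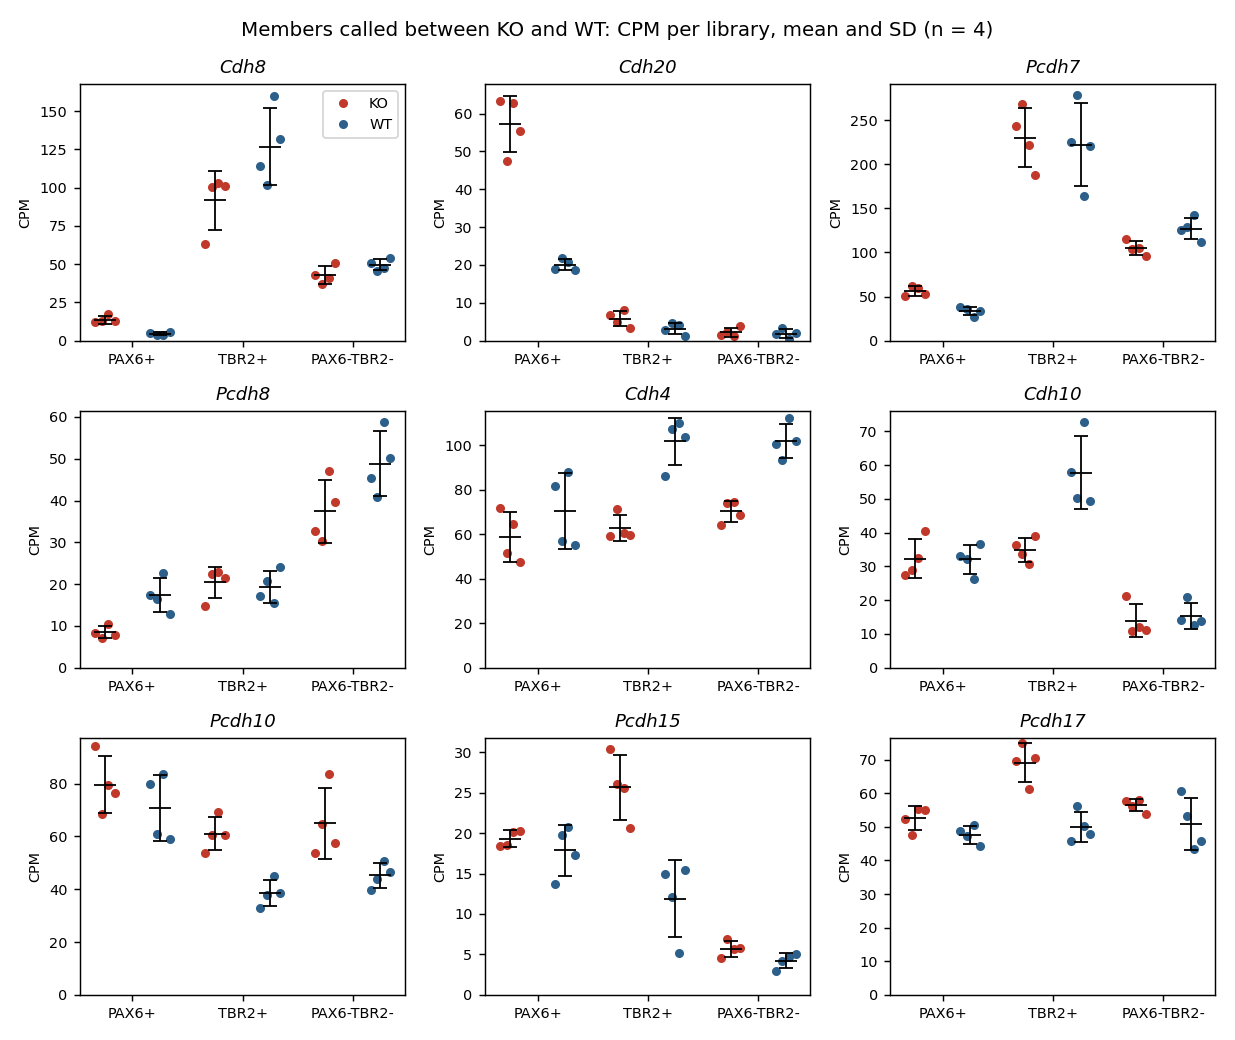
CPM of the 9 members called between KO and WT in at least 1 population, per library (points; KO red, WT blue), with the mean and SD of the 4 libraries of a group (black). In PAX6+ cells Cdh20 lay at 47.5 to 63.3 CPM in KO and 18.6 to 21.8 CPM in WT libraries, while Cdh4 separated the genotypes in TBR2+ and PAX6-TBR2- cells.

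The other 17 members tested in PAX6+ cells were not called. Cdh22, a type II cadherin at the edge of detection, had 1.86, 1.38, 1.58 and 1.62 CPM in KO PAX6+ replicates 1 to 4, against 0.701, 0.548, 0.755 and 0.407 CPM in WT PAX6+ replicates. The groups did not overlap, but the log2 fold change of 1.38 (SE 0.378) had an adjusted p of 0.05576 by edgeR. With the replicate number as a block the value was 1.40 with an adjusted p of 0.04881, which passed. Cdh22 had enough counts for the filter in its KO libraries alone, so its lack of overlap and this call are not used as support. Cdh6, a type II cadherin known from the lateral ganglionic eminence border and cortical areas, lay at 9.71 to 12.6 CPM in KO PAX6+ and 12.9 to 19.2 CPM in WT PAX6+ libraries, without overlap, with a log2 fold change of -0.53 (SE 0.167, adjusted p = 0.1236, edgeR). Non-overlapping groups were found in 6 of the 21 members tested, Cdh22 among them, and in 8.44% of all genes. N-cadherin (Cdh2) had 491 ± 44.4 CPM in KO PAX6+ and 469 ± 17.2 CPM in WT PAX6+ cells (SD, n = 4 each), and its log2 fold change of 0.07 (SE 0.0893) did not pass.

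In KO TBR2+ cells 3 protocadherins rose and 2 cadherins fell under TMM scaling, and the 3 rises did not pass with library totals. Pcdh15, Pcdh10 and Pcdh17 rose 2.14-fold, 1.58-fold and 1.38-fold, and the classical cadherins Cdh4 and Cdh10 fell 1.63-fold and 1.66-fold. The 5 called were 21.7% of the 23 members tested, and 1.76% of the 12687 genes tested were called in this comparison (1.10% higher and 0.662% lower in KO). They were also the members whose groups did not overlap, which held for 6.78% of all genes. Above 0 lay 15 of the 23 members, and their median log2 fold change was 0.27, against 0.00243 over all genes. With library totals in place of TMM scaling the median of all genes was -0.11, and 33.7% of the calls over all genes were higher in KO, in place of 62.3%. Among the members 0 were then higher and 3 lower in KO TBR2+ cells: Cdh4 and Cdh10 remained called, none of the 3 protocadherins passed, and Cdh8 was called lower (log2 fold change -0.59, adjusted p = 0.04879, edgeR).

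Cdh4 (ENSMUSG00000000305, chr2:179442431-179899373, plus strand) encodes R-cadherin, a type I classical cadherin that can pair with N-cadherin. Its level was 59.1, 71.4, 60.6 and 59.6 CPM in KO TBR2+ replicates 1 to 4, against 86.4, 107, 110 and 104 CPM in WT TBR2+ replicates. The groups did not overlap. A log2 fold change of -0.70 was found (SE 0.108, adjusted p = 0.00292, edgeR), and none of the 17 alternative settings ended the call.

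Cdh10 (ENSMUSG00000022321, chr15:18818947-19014236, plus strand), a type II cadherin, had 36.2, 33.8, 30.7 and 38.9 CPM in KO TBR2+ replicates 1 to 4, against 58, 50.3, 72.9 and 49.5 CPM in WT TBR2+ replicates. KO libraries were all below WT libraries, by a log2 fold change of -0.73 (SE 0.136, adjusted p = 0.01183, edgeR). Without KO TBR2+ replicate 3 the adjusted p was 0.05141.

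Pcdh10 (ENSMUSG00000049100, chr3:45378398-45435623, plus strand), also called OL-protocadherin, is a delta-2 protocadherin that binds the WAVE complex and is known for axon growth in the forebrain. It had 53.9, 60.5, 69.4 and 60.4 CPM in KO TBR2+ replicates 1 to 4, against 32.8, 37.7, 45.1 and 38.7 CPM in WT TBR2+ replicates. The groups did not overlap, and the log2 fold change was 0.66 (SE 0.119, adjusted p = 0.009885, edgeR). With library totals in place of TMM scaling the adjusted p was 0.05428. A gene on the opposite strand with overlapping exons, 1700027H10Rik, is annotated there and was not analysed here.

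Pcdh15 (ENSMUSG00000052613, chr10:73099342-74649737, plus strand) encodes a component of the tip links of inner ear hair cells, where it pairs with cadherin 23. Its level was 30.4, 26, 25.6 and 20.6 CPM in KO TBR2+ replicates 1 to 4, against 14.9, 12.1, 5.14 and 15.4 CPM in WT TBR2+ replicates. All KO libraries lay above all WT libraries, and WT replicate 3 was the lowest. The log2 fold change was 1.10 (SE 0.246, adjusted p = 0.03652, edgeR), and the call was lost without WT replicate 2 (adjusted p = 0.1047), KO replicate 2 (0.09826) or KO replicate 3 (0.09833), with library totals (0.07858) and with the reads recovered from the deposited normalized table (0.07916). Its partner Cdh23 averaged 3.1 ± 1.23 CPM in KO TBR2+ and 1.88 ± 1.28 CPM in WT TBR2+ cells (SD, n = 4 each) and did not pass (log2 fold change 0.67, SE 0.46).

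Pcdh17 (ENSMUSG00000035566, chr14:84443563-84539002, plus strand) is a delta-2 protocadherin known for collective axon extension and synapse assembly through the WAVE complex. It had 69.7, 74.9, 61.2 and 70.6 CPM in KO TBR2+ replicates 1 to 4, against 45.7, 56.2, 50.3 and 48 CPM in WT TBR2+ replicates. The ranges were apart, with a log2 fold change of 0.46 (SE 0.107, adjusted p = 0.04492, edgeR). The call was lost without WT replicate 1 (adjusted p = 0.1467), 3 (0.1233) or 4 (0.08877) and without KO replicate 1 (0.05683), 2 (0.1364) or 4 (0.08386), as well as with library totals (0.2525) and recovered reads (0.1211).

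Cajal-Retzius markers summed to 350 to 520 CPM in KO TBR2+ and 104 to 506 CPM in WT TBR2+ libraries, with all 6 detected in both, and WT replicate 3, lowest in Pcdh15, was also lowest in these markers. All 6 were tested in TBR2+ cells and none was called, but 0 lay below 0, and their median log2 fold change was 0.71. Neuron markers summed to 4064 to 5413 CPM in KO TBR2+ and 4022 to 5312 CPM in WT TBR2+ libraries. The mitochondrial share was 30.5% to 39.3% in KO TBR2+ and 24.7% to 33.1% in WT TBR2+ libraries. The part of these differences in the changes of the 5 called members was not tested.

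Of the members that were highest in WT PAX6-TBR2- cells, Cdh13, Cdh11, Cdh12 and Pcdh9 had log2 fold changes of 0.80 to 1.74 in TBR2+ cells that were not called. Pcdh1 and Pcdh8, the other members called higher there than in both other populations, had 0.67 (SE 0.525) and 0.07 (SE 0.174). These did not pass either. The GPI-anchored T-cadherin Cdh13, which lacks a cytoplasmic tail, had 5.81, 21.2, 32.6 and 69.7 CPM in KO TBR2+ replicates 1 to 4, against 3.34, 9.97, 6.24 and 19 CPM in WT TBR2+ replicates. Its log2 fold change was 1.74 (SE 0.565, adjusted p = 0.1892, edgeR), and KO replicate 1 was the lowest of its group while replicate 4 was highest in both genotypes. The type II cadherin Cdh11 had 9.68, 17.1, 20.1 and 31.3 CPM in KO TBR2+ replicates, against 7.14, 7.51, 10.1 and 12.1 CPM in WT TBR2+ replicates (log2 fold change 1.08, SE 0.287, adjusted p = 0.08345, edgeR). The delta-1 protocadherin Pcdh9 had 9.23, 21.4, 29.6 and 55.1 CPM in KO TBR2+ replicates, against 12.2, 16.7, 13.8 and 23.1 CPM in WT TBR2+ replicates (log2 fold change 0.80, SE 0.374, adjusted p = 0.4054, edgeR). In Cdh13, Cdh11 and Pcdh9 KO replicates 1 and 4 were the extremes of the KO group. Cdh12 had 1.64, 2.82, 3.6 and 2.2 CPM in KO TBR2+ replicates, against 0.304, 0.653, 1.65 and 2.62 CPM in WT TBR2+ replicates (log2 fold change 0.96, SE 0.493, adjusted p = 0.4681, edgeR). Without KO TBR2+ replicate 1 Cdh13, Cdh11 and Pcdh9 passed, with adjusted p-values of 0.01151, 0.005927 and 0.03265 in that order (edgeR). They also passed without a filter and with the replicate block, and Cdh11 with DESeq2 (adjusted p = 0.01502). Cdh11 and Cdh13 passed with all libraries in 1 fit (adjusted p = 0.03986 and 0.04103, edgeR). Cdh8, which rose in KO PAX6+ cells, had 62.8, 100.2, 103 and 101 CPM in KO TBR2+ replicates, against 114, 101, 160 and 132 CPM in WT TBR2+ replicates. The groups overlapped (log2 fold change -0.47, SE 0.16, adjusted p = 0.2062, edgeR). Cdh8 was called lower with library totals (adjusted p = 0.04879), without a filter (0.001936) and with the replicate block (0.01298, edgeR).

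In PAX6-TBR2- cells none of the 21 members tested was called by edgeR, where 1 of 12928 genes, or 0.00774%, was called. At an unadjusted p under 0.05 edgeR gave 6 members, and the share of all genes at that threshold is not given here. At an adjusted p under 0.05 DESeq2 called 1 member, Cdh4, and limma called 0. Cdh4 had 64.3, 74, 74.5 and 68.7 CPM in KO PAX6-TBR2- replicates 1 to 4, against 101, 93.5, 112 and 102 CPM in WT PAX6-TBR2- replicates. The groups did not overlap, as in TBR2+ cells, with a log2 fold change of -0.54 (SE 0.0959, adjusted p = 0.1125 by edgeR and 0.00162 by DESeq2). Cdh12, a type II cadherin, had 11.2, 4.92, 12.9 and 11.8 CPM in KO PAX6-TBR2- replicates, against 17.4, 13.2, 25.1 and 23.8 CPM in WT PAX6-TBR2- replicates. The log2 fold change of -0.98 (SE 0.263) had an adjusted p of 0.5159 by edgeR. Pcdh10 had 53.7, 64.7, 83.8 and 57.7 CPM in KO PAX6-TBR2- replicates, against 39.8, 43.7, 50.9 and 46.6 CPM in WT PAX6-TBR2- replicates. No library of KO fell within the WT range, and the log2 fold change of 0.51 (SE 0.138) had an adjusted p of 0.5159 by edgeR. Non-overlapping groups occurred in these 3 members and in 4.16% of all genes tested. With the replicate number as a block edgeR called 4 members. The adjusted p was 0.001341 for Cdh4, 0.001015 for Cdh12, 0.006789 for Pcdh10 and 0.04993 for Pcdh8 (edgeR). The share of all genes called by DESeq2, limma or the block is not given here. Their counts of members therefore cannot be set against the 0.00774% of the main fit. Each KO library correlated best with its same-numbered WT library, at 0.299 to 0.342 in replicates 1, 3 and 4 but only 0.0799 in replicate 2.

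Same-numbered PAX6-TBR2- libraries of the genotypes lay close to each other for several abundant members. Cdh13 had 398, 331, 247 and 204 CPM in KO replicates 1 to 4 and 375, 284, 224 and 201 CPM in WT replicates. Pcdh9 had 454, 358, 268 and 247 CPM in KO replicates and 376, 311, 276 and 235 CPM in WT replicates. Replicate 1 was highest in both genes and both genotypes. Interneuron markers, of cells that the Emx1 lineage does not produce, were lowest in that replicate, at 507, 735, 1200 and 1193 CPM in KO replicates and 382, 492, 786 and 1041 CPM in WT replicates. The part of the interneuron share in these levels was not tested.

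**Figure D2:**
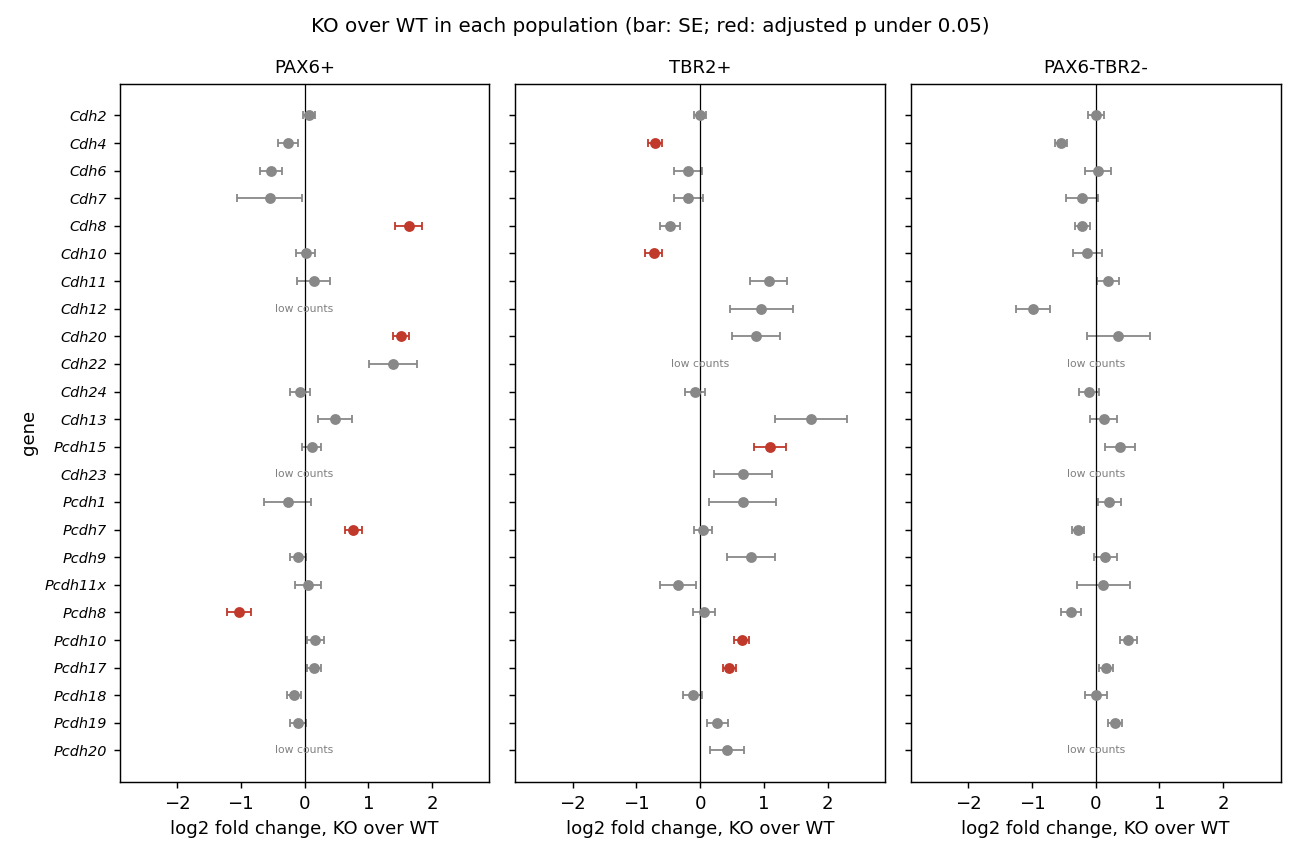
Log2 fold change of KO over WT (points; bars are the SE of the edgeR fit) of the 24 tested members in PAX6+, TBR2+ and PAX6-TBR2- cells. Red points passed an adjusted p of 0.05, 4 in PAX6+ and 5 in TBR2+ cells, and "low counts" marks members that were not tested in a population.

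No member was called in both PAX6+ and TBR2+ cells, and the difference between the genotype effects was tested as an interaction. Cdh8 was the member called between PAX6+ and TBR2+ cells, 1 of 24 tested, where 0.612% of all genes were called. Its effect was higher in PAX6+ by 2.12 on the log2 scale (SE 0.262, adjusted p = 0.0001591, edgeR). For Pcdh8 the difference was -1.10 (SE 0.264) with an adjusted p of 0.06157, and for Pcdh7 0.71 (SE 0.206) with an adjusted p of 0.1612 (edgeR). Pcdh8 passed without WT PAX6+ replicate 4 (adjusted p = 0.03237), WT TBR2+ replicate 4 (0.03456), KO PAX6+ replicate 3 (0.0434) or KO TBR2+ replicate 1 (0.02023). For Cdh20 the difference was 0.63 (SE 0.362, adjusted p = 0.8176, edgeR), and its level in TBR2+ cells was 3.3 to 7.96 CPM in KO and 1.15 to 4.57 CPM in WT libraries.

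Between PAX6+ and PAX6-TBR2- cells the effect differed for Cdh8, by 1.85 (SE 0.225, adjusted p = 8.387e-05, edgeR), and for Pcdh7, by 1.03 (SE 0.165, adjusted p = 0.001846, edgeR). They were 2 of 23 members tested, where 0.775% of all genes were called. Pcdh7 had 115, 104, 105 and 95.8 CPM in KO PAX6-TBR2- replicates 1 to 4, against 125, 129, 142 and 112 CPM in WT PAX6-TBR2- replicates. Between TBR2+ and PAX6-TBR2- cells edgeR called 0 of 23 members, as did DESeq2 and limma, and 4 members had an unadjusted p under 0.05 by edgeR. In that comparison 0.0510% of all genes were called at an adjusted p under 0.05, and the share at an unadjusted p is not given here. The effect on Cdh4, -0.70 in TBR2+ and -0.54 in PAX6-TBR2- cells, differed by -0.16 (SE 0.141), and that difference did not pass.

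Genes that work with the members were counted from lists. Of the 13 catenins and junction anchors, all tested, 1 rose in KO PAX6+ and 1 in KO TBR2+ cells. Over all genes tested 3.64% were called in PAX6+ and 1.76% in TBR2+ cells. Ctnna2, the neuronal alpha-catenin that links cadherins to actin, lay at 26.8 to 35.2 CPM in KO PAX6+ and 14.2 to 19.4 CPM in WT PAX6+ libraries (log2 fold change 0.82, SE 0.145, adjusted p = 0.00253, edgeR). Ctnnd2, the delta-catenin that binds the juxtamembrane tail of classical cadherins, lay at 167 to 258 CPM in KO TBR2+ and 96 to 155 CPM in WT TBR2+ libraries (log2 fold change 0.78, SE 0.142, adjusted p = 0.00997, edgeR). The ranges of the genotypes did not overlap in either gene. The median of the list was 0.14 in PAX6+, 0.02 in TBR2+ and -0.01 in PAX6-TBR2- cells, and over all genes it was 0.00197, 0.00243 and 0.000713 in the same order.

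Of the 12 WAVE complex and protein phosphatase 1 genes, all tested, 1 rose and 1 fell in KO PAX6+ cells, where 3.64% of all genes were called. None was called in the other populations. Wasf1, the actin-nucleating WAVE1 subunit, lay at 49.3 to 55 CPM in KO PAX6+ and 31.6 to 40.5 CPM in WT PAX6+ libraries (log2 fold change 0.57, SE 0.113, adjusted p = 0.006344, edgeR). Cyfip2, another subunit of the complex, lay at 45.2 to 55.7 CPM in KO PAX6+ and 67.6 to 99.7 CPM in WT PAX6+ libraries (log2 fold change -0.67, SE 0.131, adjusted p = 0.005905, edgeR). The median of the list was -0.06 in PAX6+, 0.05 in TBR2+ and 0.02 in PAX6-TBR2- cells.

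Of the 13 large cadherins and calsyntenins, 11 were tested and 1 was called, in PAX6+ cells, where 3.64% of all genes were called. Fat4, a giant cadherin that binds Dchs1 and is known for regulating progenitors of the cortex, lay at 693 to 853 CPM in KO PAX6+ and 572 to 648 CPM in WT PAX6+ libraries. Its log2 fold change of 0.36 (SE 0.0928, adjusted p = 0.04183, edgeR) was lost in 8 of 16 settings, with adjusted p-values of 0.07197 to 0.4806, among them without WT replicate 1, 2, 3 or 4 and without KO replicate 1 or 3. None of the 6 nectin and Rap1 genes was called in any population, nor were Zeb1 and Zeb2, the 2 tested of 4 known repressors of classical cadherin genes.

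Most members differed between the populations in the absence of Cre. In WT cells 17 of 21 members, or 81%, were called between PAX6+ and TBR2+ cells (9 higher, 8 lower in PAX6+), where 63.2% of all genes were called (32.2% higher, 31.0% lower). Between TBR2+ and PAX6-TBR2- cells 13 of 22 were called (5 higher, 8 lower in TBR2+), against 49.0% of all genes (23.4% higher, 25.6% lower), and between PAX6+ and PAX6-TBR2- cells 17 of 21 (7 higher, 10 lower in PAX6+), against 66.6% of all genes (33.7% higher, 32.9% lower). Library names carry their own prefix for each population, so handling and population cannot be told apart. With library totals in place of TMM scaling the median of all genes rose to 0.54 for PAX6+ over TBR2+ and 0.46 for PAX6+ over PAX6-TBR2-, and 79% and 70.6% of the calls were then higher in PAX6+, in place of 51% and 50.6%. Among the members 11 were then higher and 6 lower in PAX6+ than in TBR2+ cells: Cdh4 and Cdh11 no longer passed (adjusted p = 0.9191 and 0.3142, edgeR), and Cdh24 and Pcdh17 became higher in PAX6+.

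N-cadherin was the most abundant member per kb of exon in each of the 6 groups. Its level was 60.9 and 58.1 CPM per kb in KO and WT PAX6+, 47.8 and 47.5 CPM per kb in KO and WT TBR2+, and 65.9 and 65.7 CPM per kb in KO and WT PAX6-TBR2- cells. Next in WT PAX6+ cells came Pcdh19 at 11.5, Cdh4 at 9.72 and Pcdh18 at 9.06 CPM per kb. In WT TBR2+ cells Pcdh7 at 21, Cdh8 at 16.4 and Cdh4 at 14 CPM per kb followed. In WT PAX6-TBR2- cells Pcdh9 at 44.2 and Cdh13 at 24.1 CPM per kb followed.

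A set of members was highest in WT PAX6+ cells. Cdh20 had 19, 21.8, 20.9 and 18.6 CPM in WT PAX6+ replicates 1 to 4, 2.73, 4.57, 4.04 and 1.15 CPM in WT TBR2+ replicates, and 1.66, 3.22, 0.394 and 1.87 CPM in WT PAX6-TBR2- replicates. The level was 6.39-fold higher in PAX6+ than in TBR2+ cells, a log2 fold change of 2.68 (SE 0.251, adjusted p = 5.513e-08, edgeR), while the test of TBR2+ over PAX6-TBR2- cells did not pass. Pcdh11x, an X-linked delta-1 protocadherin, had 12.1, 11.8, 8.43 and 11.2 CPM in WT PAX6+ replicates, 5.17, 5.23, 5.32 and 5.41 CPM in WT TBR2+ replicates, and 3.73, 5.25, 1.05 and 2.23 CPM in WT PAX6-TBR2- replicates. Its log2 fold change of 0.86 (SE 0.363) for TBR2+ over PAX6-TBR2- had an adjusted p of 0.06196, and of 0.009677 without WT PAX6-TBR2- replicate 2 (edgeR). Pcdh15 had 13.7, 19.8, 20.8 and 17.3 CPM in WT PAX6+ replicates, 14.9, 12.1, 5.14 and 15.4 CPM in WT TBR2+ replicates, and 2.9, 4.23, 4.73 and 5 CPM in WT PAX6-TBR2- replicates. Its PAX6+ and TBR2+ libraries overlapped, and the neurons lay below both. The call of Pcdh15 for PAX6+ over TBR2+ (log2 fold change 0.57, SE 0.236, adjusted p = 0.04469, edgeR) was lost without WT PAX6+ replicate 2 (0.09542), 3 (0.1029) or 4 (0.06063) and without WT TBR2+ replicate 2 (0.08059) or 3 (0.1268). Cdh6, Pcdh10 and Pcdh18 were also called higher in PAX6+ than in either other population. Their means were 15.47, 70.8 and 48.6 CPM in WT PAX6+, 9.25, 38.6 and 28.7 CPM in WT TBR2+, and 8.24, 45.2 and 27 CPM in WT PAX6-TBR2- cells.

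A further set peaked in WT TBR2+ cells. Cdh8 had 5, 3.49, 3.65 and 5.6 CPM in WT PAX6+ replicates 1 to 4, 114, 101, 160 and 132 CPM in WT TBR2+ replicates, and 50.8, 45.7, 47.7 and 53.9 CPM in WT PAX6-TBR2- replicates. The 3 populations did not overlap, with log2 fold changes of -4.88 (SE 0.178, adjusted p = 3.351e-13) for PAX6+ over TBR2+ and 1.34 (SE 0.134, adjusted p = 8.438e-07) for TBR2+ over PAX6-TBR2- (edgeR). Pcdh7 followed the same order, at 38.2, 35.5, 26.7 and 33.5 CPM in WT PAX6+, 226, 279, 164 and 221 CPM in WT TBR2+, and 125, 129, 142 and 112 CPM in WT PAX6-TBR2- replicates. Cdh10 had 33.2, 32.2, 26.2 and 36.7 CPM in WT PAX6+, 58, 50.3, 72.9 and 49.5 CPM in WT TBR2+, and 14.1, 20.8, 12.6 and 13.8 CPM in WT PAX6-TBR2- replicates. All 3 genes stood without overlap between any pair of populations. Pcdh7 was 6.73-fold lower in PAX6+ than in TBR2+ cells (log2 fold change -2.75, SE 0.152), and 1.74-fold higher in TBR2+ than in PAX6-TBR2- cells (0.80, SE 0.138). For Cdh10 the same comparisons gave log2 fold changes of -0.87 (SE 0.139) and 1.92 (SE 0.172). Pcdh20, a protocadherin outside the delta groups, had 0.0877, 0.0685, 0.126 and 0.204 CPM in WT PAX6+, 5.92, 3.76, 4.04 and 7.38 CPM in WT TBR2+, and 2.49, 1.52, 0.789 and 1.12 CPM in WT PAX6-TBR2- replicates. Its PAX6+ libraries held so few reads that the fitted fold change depends on the prior count.

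Another set was highest in WT PAX6-TBR2- cells. Cdh13 had 2.72, 2.12, 3.02 and 2.14 CPM in WT PAX6+ replicates 1 to 4, 3.34, 9.97, 6.24 and 19 CPM in WT TBR2+ replicates, and 375, 284, 224 and 201 CPM in WT PAX6-TBR2- replicates. TBR2+ over PAX6-TBR2- gave a log2 fold change of -4.82 (SE 0.347), and that of PAX6+ over PAX6-TBR2- was -6.75 (SE 0.221). Cdh11 had 5.87, 4.31, 6.41 and 4.89 CPM in WT PAX6+, 7.14, 7.51, 10.1 and 12.1 CPM in WT TBR2+, and 120, 97.7, 66.9 and 68.8 CPM in WT PAX6-TBR2- replicates. Pcdh1, a delta-1 protocadherin, had 7.63, 2.74, 2.51 and 3.77 CPM in WT PAX6+, 2.43, 4.41, 4.04 and 9.01 CPM in WT TBR2+, and 62, 57.4, 102 and 71.2 CPM in WT PAX6-TBR2- replicates. The progenitor populations overlapped in Pcdh1, and neurons stood above both in all 3 genes. Cdh11 and Pcdh1 were 9.61-fold and 14.9-fold lower in TBR2+ than in PAX6-TBR2- cells (log2 fold changes -3.26, SE 0.217, and -3.89, SE 0.281). Cdh12 was at the edge of detection in WT PAX6+ cells, at 0, 0.0685, 0.189 and 0 CPM, and had 0.304, 0.653, 1.65 and 2.62 CPM in WT TBR2+ and 17.4, 13.2, 25.1 and 23.8 CPM in WT PAX6-TBR2- replicates. Pcdh8 had 17.4, 16.4, 22.6 and 12.9 CPM in WT PAX6+, 17.2, 20.8, 15.4 and 24.1 CPM in WT TBR2+, and 45.4, 40.8, 58.9 and 50.1 CPM in WT PAX6-TBR2- replicates. Its log2 fold change was -1.35 (SE 0.157) for TBR2+ over PAX6-TBR2-, and the progenitor populations overlapped.

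Other members were lowest in the TBR2+ population, between high levels on both sides. Pcdh19, an X-linked delta-2 protocadherin whose human gene is mutated in an epilepsy of females, had 115, 145, 96.9 and 126 CPM in WT PAX6+ replicates 1 to 4, 25.5, 21.1, 14.3 and 22.9 CPM in WT TBR2+ replicates, and 136, 134, 138 and 163 CPM in WT PAX6-TBR2- replicates. The log2 fold change was 2.50 (SE 0.159) for PAX6+ over TBR2+ and -2.78 (SE 0.151) for TBR2+ over PAX6-TBR2-, and PAX6+ over PAX6-TBR2- did not pass (adjusted p = 0.0912), though it did without WT PAX6+ replicate 2 (0.02845, edgeR). Pcdh9 had 69.8, 54.6, 57.8 and 49.6 CPM in WT PAX6+, 12.2, 16.7, 13.8 and 23.1 CPM in WT TBR2+, and 376, 311, 276 and 235 CPM in WT PAX6-TBR2- replicates. It was thus called lower in TBR2+ than in PAX6+ cells, by a log2 fold change of PAX6+ over TBR2+ of 1.81 (SE 0.169), and highest in neurons. N-cadherin was called in the same order, with smaller steps, at 469 ± 17.2 CPM in WT PAX6+, 383 ± 24.7 CPM in WT TBR2+ and 530 ± 64.8 CPM in WT PAX6-TBR2- cells (SD, n = 4 each). The test of PAX6+ over PAX6-TBR2- cells did not pass (log2 fold change -0.19, SE 0.0998).

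R-cadherin and Cdh7 were lower in WT PAX6+ than in both other populations, R-cadherin under TMM scaling but not with library totals (adjusted p = 0.9191 for PAX6+ over TBR2+ and 0.5312 for PAX6+ over PAX6-TBR2-, edgeR). Cdh4 averaged 70.5 ± 17 CPM in WT PAX6+, 102 ± 10.6 CPM in WT TBR2+ and 102 ± 7.73 CPM in WT PAX6-TBR2- cells (SD, n = 4 each). Cdh7, a type II cadherin, had 1.23, 1.78, 2.7 and 1.22 CPM in WT PAX6+ replicates 1 to 4, 10.9, 10.3, 6.06 and 7.87 CPM in WT TBR2+, and 10.4, 7.28, 8.02 and 5.4 CPM in WT PAX6-TBR2- replicates. The TBR2+ and PAX6-TBR2- libraries overlapped in both genes. Cdh24, a type II cadherin, and Pcdh17 were called in none of the 3 comparisons under TMM scaling, with means of 28.3 and 47.6 CPM in WT PAX6+, 27.1 and 50.1 CPM in WT TBR2+, and 31.3 and 50.7 CPM in WT PAX6-TBR2- cells.

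**Figure D3:**
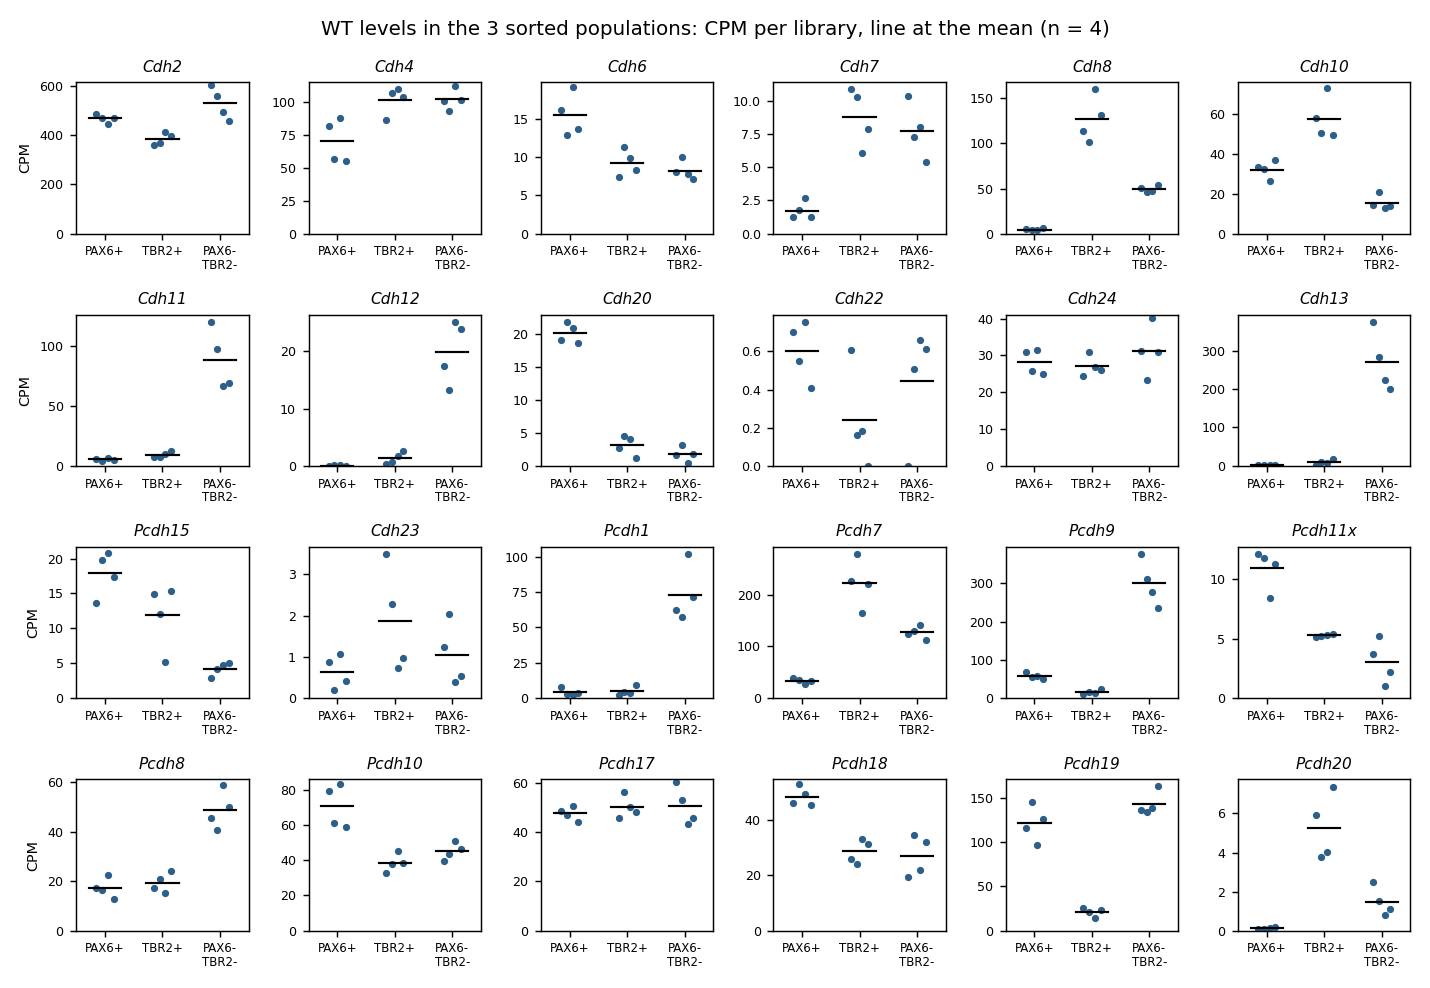
CPM of the 24 tested members in WT PAX6+, TBR2+ and PAX6-TBR2- libraries (points; the line is the mean of 4 libraries), each panel with its own axis from 0. Cdh20 was highest in PAX6+, Cdh8, Pcdh7 and Cdh10 peaked in TBR2+, Cdh13, Cdh11 and Pcdh1 were highest in PAX6-TBR2-, and Pcdh19 was lowest in TBR2+ cells.

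The subfamilies were summed to show which kind of adhesion gene carried the reads. The 5 classical type I cadherins, with N-cadherin among them, had the largest sum in each of the 6 groups. It was 539.7 ± 21.38 CPM in WT PAX6+, 486.2 ± 32.4 CPM in WT TBR2+ and 632.1 ± 61.36 CPM in WT PAX6-TBR2- cells (SD, n = 4 each). The 4 delta-1 protocadherins came next in WT PAX6-TBR2- cells, at 503 ± 61.13 CPM (SD, n = 4). The 5 delta-2 protocadherins summed to 296 ± 7.81 and 305 ± 14.4 CPM in KO and WT PAX6+, 203 ± 11.6 and 158 ± 7.47 CPM in KO and WT TBR2+, and 364 ± 36.4 and 315 ± 15.9 CPM in KO and WT PAX6-TBR2- cells (SD, n = 4 each). In TBR2+ cells the sum was 185 to 211 CPM in KO and 147 to 165 CPM in WT libraries, without overlap, and Pcdh10 and Pcdh17, called above, are 2 of its 5 genes. The 12 type II cadherins summed to 150 ± 13.8 and 108 ± 4.39 CPM in KO and WT PAX6+ cells (SD, n = 4 each), at 132 to 164 CPM in KO and 103 to 112 CPM in WT libraries. In TBR2+ cells their sum lay the other way, at 156.4 to 217.2 CPM in KO and 217.4 to 292.4 CPM in WT libraries, with means of 198 ± 28.7 and 244 ± 33.6 CPM (SD, n = 4 each). Cdh20 and Cdh8 are among these 12, and the sums were not tested. All 34 members together summed to 1108 to 1235 CPM in KO PAX6+ and 1040 to 1137 CPM in WT PAX6+ libraries, 1053 to 1264 and 1094 to 1209 CPM in KO and WT TBR2+, and 1695 to 2314 and 1736 to 2212 CPM in KO and WT PAX6-TBR2- libraries.

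Members that neighbour each other on a chromosome were set side by side. They lay on 11 chromosomes, with 7 on chromosome 8 and 5 each on chromosomes 14 and 15, and none on chromosome 6, which carries Emx1. Cdh20, highest in PAX6+ cells, lies 4.99 Mb from Cdh7, which was lowest there. Cdh8, highest in TBR2+ cells, lies 3.22 Mb from Cdh11, highest in PAX6-TBR2- cells. By contrast, Pcdh10 and Pcdh18, both called highest in WT PAX6+ cells, lie 4.31 Mb apart on chromosome 3. On chromosome 14 Pcdh8, Pcdh17, Pcdh20 and Pcdh9 follow each other at gaps of 4.67, 3.93 and 4.54 Mb. Pcdh8 and Pcdh9 were highest in neurons, Pcdh20 in TBR2+ cells, and Pcdh17 was called in none of the WT comparisons under TMM scaling.

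**Figure D4:**
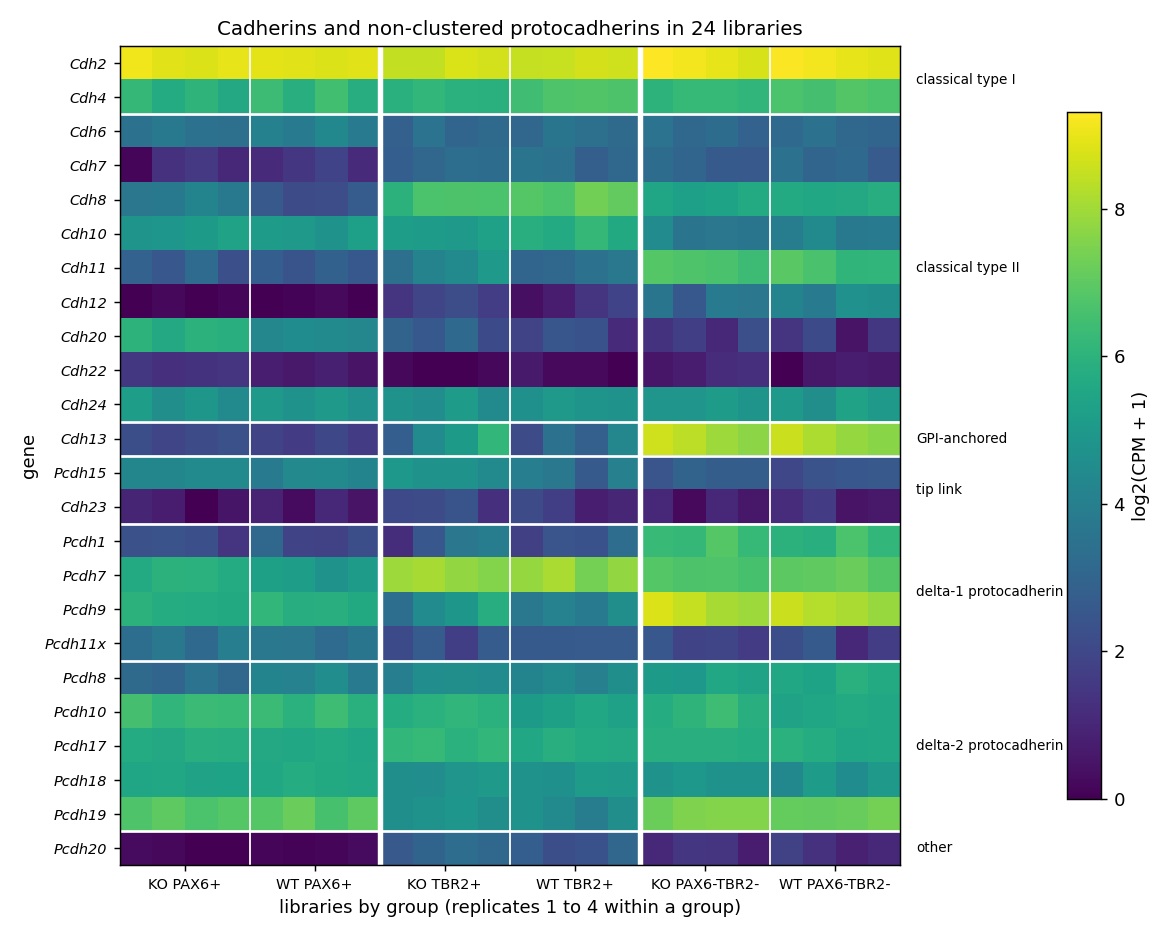
Level of the 24 tested members, as log2(CPM + 1), in the 24 libraries, by subfamily (rows) and group (columns, replicates 1 to 4 within a group, KO left of WT). Cdh2 was the highest row in every group, Cdh8 and Pcdh7 were brightest in TBR2+ libraries, and Cdh13, Pcdh9 and Pcdh1 in PAX6-TBR2- libraries.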

How the data were processed

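Per the labels' protocols, cDNA made from the RNA of sorted cells was SPIA-amplified with an Ovation kit; no molecular identifiers are named. Per the submitters' processing notes, FastQC, cutadapt, STAR, featureCounts and DESeq2 were used with mm10. No source used here gives the versions, the annotation release or whether counting used strand. The deposited count tables hold raw counts per Ensembl gene, and the 2 lanes of a library were summed. The deposited normalized tables hold signal values from which whole reads were recovered; these equalled the raw counts in PAX6+. Elsewhere 1 of 16 columns equalled a raw library, 1 WT PAX6-TBR2- column held 60.1 M reads, and group sums were 1.44 to 1.7 times those of the raw counts. The raw counts were used, and recovered reads were an alternative without 1 WT TBR2+ column. That column was left out after a unit check of its step, although 100% of its values were whole multiples of the step. Of 39017 identifiers, 37693 were named with GENCODE M21 (GRCm38).

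Groups and replicate numbers came from the sample titles. The 36 pairs of libraries within groups differed by more than sampling noise (chi-square per degree of freedom 5.65 to 45.5 over genes with at least 20 reads), and none was merged. Tests used edgeR 4.0.16 in R 4.3.3 (filterByExpr, TMM, glmQLFit and glmQLFTest, two-sided, Benjamini-Hochberg over all genes tested), within the 8 libraries of a comparison or the 16 of an interaction. SE is the size of the log2 fold change over the square root of F. The fit was tested on simulated data. Alternatives were library totals, no filter, DESeq2 1.42.0, limma 3.58.1, all libraries in 1 fit, a replicate block, recovered reads and each library left out. Same-numbered PAX6+ libraries deviated together between genotypes (correlations 0.186 to 0.436), so the block is given for PAX6+ where it changes a call. Outside PAX6+ some same-numbered pairs correlated weakly (down to 0.0468), and the block is given there for some members. Values in every library are given for members called between genotypes or in an interaction, and for up to 10 called members without overlap per WT comparison. Other members with per-library values were chosen after their values were seen. Members and lists were chosen with earlier results of these data known. Read counts limit the precision of members under about 1 CPM, and intervals between libraries cover these libraries only.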

Additional observations from a re-analysis of the deposited data

Results flagged for a closer look

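Among 108 groups of 4 libraries, 8 held a library whose gap to the nearest other, relative to the range of the group, passed Dixon's 95% limit. Chance flags about 1 in 20 groups. Cdh8 stood at 17.1 CPM in KO PAX6+ replicate 3, against 11.8 to 12.7 CPM in the other replicates, and at 62.8 CPM in KO TBR2+ replicate 1, against 100.2 to 102.7 CPM. Pcdh8 in the same KO TBR2+ replicate 1 stood at 14.7 CPM, against 21.5 to 22.9 CPM. Cdh4 stood at 71.4 CPM in KO TBR2+ replicate 2, against 59.1 to 60.6 CPM. Pcdh1 stood at 1.62 CPM in KO PAX6+ replicate 4, against 3.87 to 4.22 CPM, and at 115 CPM in KO PAX6-TBR2- replicate 3, against 72.6 to 78.5 CPM. Cdh10 stood at 21.3 CPM in KO PAX6-TBR2- replicate 1, against 11 to 12.1 CPM. Pcdh19 stood at 163 CPM in WT PAX6-TBR2- replicate 4, against 134 to 138 CPM.

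The genotype effect differed between populations by a test of the difference for Cdh8, by 2.12 on the log2 scale for PAX6+ minus TBR2+ and by 1.85 for PAX6+ minus PAX6-TBR2-, and for Pcdh7, by 1.03 for PAX6+ minus PAX6-TBR2-.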

How the results depend on the processing

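No called result reversed its direction. Of 865 alternative values for 50 single-gene results, 836 kept their side of the threshold, 23 no longer passed and 6 newly passed. The 50 include, for each WT comparison, the 10 called members without overlap that had the largest fold changes. Their calls had little room to change. Weaker WT calls were left out of this count, among them Pcdh15, Cdh4 and Cdh11 for PAX6+ over TBR2+, which were lost in some settings. The 4 calls in PAX6+ cells held in all 16 settings. The 5 calls of KO over WT in TBR2+ cells became 3 with library totals (0 higher and 3 lower, in place of 3 higher and 2 lower), 3 with recovered reads (1 higher and 2 lower, with 1 WT TBR2+ library fewer, so 2 choices changed together) and 9 without a filter or with the replicate block, and 3 to 7 with a library left out. The fewest, 3, came without KO TBR2+ replicate 2 or 3. In PAX6-TBR2- cells the 0 calls became 2 without a filter (Cdh4 and Cdh12), 1 with DESeq2 (Cdh4), 4 with the replicate block (adjusted p = 0.001341 for Cdh4, 0.001015 for Cdh12, 0.04993 for Pcdh8 and 0.006789 for Pcdh10, edgeR), and 0 to 0 with a library left out. For PAX6+ minus TBR2+ the 1 call (Cdh8) became 7 without a filter, 2 with DESeq2 or all libraries in 1 fit, 3 with the replicate block, and 1 to 2 with a library left out. For TBR2+ minus PAX6-TBR2- the 0 calls became 3 without a filter (Cdh11, Cdh12 and Cdh13). The causes were not tested. Shares of all genes called are given for the main fit only, so counts of members in other settings cannot be set against them. Leaving out a library gave 4 to 4 calls in KO PAX6+, 16 to 18, 13 to 14 and 17 to 18 in the WT comparisons of PAX6+ over TBR2+, TBR2+ over PAX6-TBR2- and PAX6+ over PAX6-TBR2-, and 2 to 2 for PAX6+ minus PAX6-TBR2-. Outside PAX6+ the replicate numbers did not pair the libraries by the rule used (KO and WT TBR2+ replicates 2 and 3 correlated at 0.0549 and 0.0468, PAX6-TBR2- replicate 2 at 0.0799). Every library correlated best with its own number in PAX6+ and in PAX6-TBR2-, and 2 of 4 did in TBR2+. Between WT PAX6+ and PAX6-TBR2- 2 of 4 did, and in the other pairs of WT populations 0 of 4. Members under about 1 CPM, such as Cdh12 and Pcdh20 in PAX6+, rest on a few reads per library, and their fitted fold changes depend on the prior count.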

Other observations

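Cdh5, the endothelial cadherin that the name rule leaves out, had 0.656 ± 0.56 CPM in KO PAX6+ and 1.5 ± 0.464 CPM in WT PAX6+ cells, 1.8 ± 1.2 and 1.23 ± 0.883 CPM in KO and WT TBR2+, and 2.98 ± 0.904 and 3.32 ± 1.45 CPM in KO and WT PAX6-TBR2- cells (SD, n = 4 each). Emx1, whose locus carries Cre in KO cells, had 17.1 ± 3.77 CPM in KO PAX6+ and 22 ± 2.14 CPM in WT PAX6+ cells (SD, n = 4 each), and its log2 fold change of -0.36 (SE 0.168) did not pass.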
